A study of Drosophila melanogaster with 12 samples.

Results

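Digestion in the fly begins with enzymes that the midgut and salivary glands release into the gut lumen, and the RNA of 5 families of these enzymes was examined here. The 47 genes were chosen by their FlyBase symbols. They are the 16 Jonah (Jon) serine proteases, the 11 trypsins named by a Greek letter, the 10 maltases of the Mal-A and Mal-B groups, the 3 amylase genes Amy-p, Amy-d and Amyrel, and the 7 lysozymes LysB, LysC, LysD, LysE, LysP, LysS and LysX. In the counts they appear as 66 of 14413 features. Of these, 47 hold the reads of a single gene, and 19 are merged features, in which the authors' counting placed reads that map equally well to several genes.

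The samples were whole iso31 flies, each a pool of 10 males and 10 females collected at ZT0-3, the first hours after lights-on, with 3 samples (A, B and C) in each of 4 groups. Control flies were kept on a schedule of 12 h light to 12 h dark (LD 12:12). Flies under chronic circadian misalignment (CCM) were kept on LD 14:14, a cycle of 28 h, and each schedule lasted 2 or 3 weeks. Every group lived in activity-monitor tubes with food of 5% sucrose and 2% agar. Whole flies of both sexes were pooled, so fewer cells of a type and less RNA per cell cannot be told apart, and neither can the share of each sex.

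Trypsins and the chymotrypsin-like Jonah proteases cut proteins inside the chain. Amylase cleaves starch to maltose, maltases (α-glucosidases) release glucose from maltose and sucrose, and lysozymes break down the cell walls of ingested bacteria. Enterocytes of the midgut make most of these enzymes, in amounts that follow diet and gut region. Dietary sugar is known to lower amylase and protease RNA of the fly midgut, in part through the Activin ligand Dawdle (daw), while the transcription factors Mondo and sugarbabe (sug) act in sugar sensing.

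The libraries held 17842804 to 23687266 counts. At week 3 the CCM libraries were the deeper ones, with 21506910 to 21925648 counts against 17842804 to 19162218 in control libraries. Levels are given in CPM, counts per 1000000 of the library size after TMM scaling. The digestive enzyme features took 0.883% to 1.73% of the counts, and 3 counts, the smallest number read here as a signal, correspond to 0.118 to 0.184 CPM, which covers counting error only. Of the 66 features, 44 passed the filter on low counts in all 5 tests, and these 44 held 99.98% of the enzyme reads. The 19 features that passed in none comprised 13 merged features and 6 single genes. Those genes were Jon66Cii, gammaTry, LysB, LysC, LysD and LysS, which had at most 0.443 CPM in any sample.

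The genes lie in tight clusters. In the dm6 coordinates of the Ensembl annotation, the 11 trypsins span 20698 bases of chromosome 2R (11336840 to 11357537), and the 8 Mal-A genes 24298 bases of the same arm (8449664 to 8473961). Amy-p and Amy-d stand within 7734 bases at 2R 17118636 to 17126369, and Mal-B1 and Mal-B2 within 5656 bases at 2L 11847226 to 11852881. The Jonah genes lie in small groups: Jon25Bi, Jon25Bii and Jon25Biii at 2L 4949941 to 4955144, the 4 Jon65A genes at 3L 6039155 to 6054443, the 3 Jon99C genes at 3R 29922216 to 29926189, and Jon99Fi and Jon99Fii at 3R 30487016 to 30489895. All 7 lysozymes lie at 3L 1194739 to 1228238. Most of the genes are simple, with a single exon in 31 of 47. Their exons total 911 bases at the median, and the 40 single-gene members tested at week 3 had a median of 942 bases against 1872 bases over the 11396 single-gene features tested.

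Of the summed CPM of all 66 features, the trypsins made up 28.6%, the amylases 26.2%, the Jonah proteases 25.2%, the maltases 18.6% and the lysozymes 1.32%. Per kb of exon, the most abundant transcript was that of alphaTry, with 2563 CPM per kb over the 12 samples, followed by Jon65Aiii with 1592, Jon65Aiv with 1461 and betaTry with 1358. Amy-d (790.0 CPM per kb) and Amy-p (781) came next, and then the maltases Mal-A1 (431) and Mal-B2 (284). A few genes therefore carried each family. alphaTry and betaTry held 90.3% of the trypsin CPM, Jon65Aiii and Jon65Aiv 75.8% of the Jonah CPM, and LysP 82.7% of the lysozyme CPM, whereas the maltase CPM was spread more widely, with 54.8% in Mal-A1 and Mal-B2. LysP is known from the adult salivary gland.

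**Figure D1:**
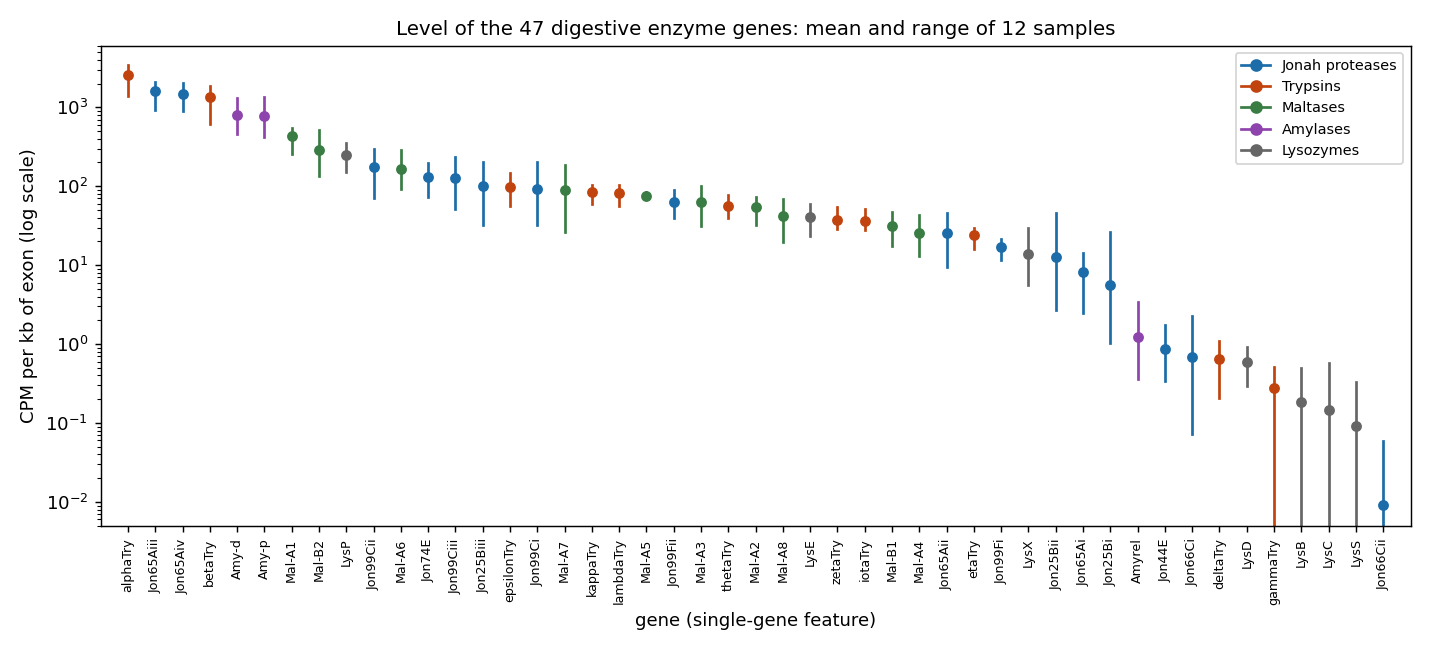
Level of each of the 47 genes in CPM per kb of exon on a log scale, as the mean (point) and the range (line) of 12 samples, coloured by family. The levels run from 2563 for alphaTry to 0.00909 for Jon66Cii, and lines that reach the lower edge include a sample with 0 reads.

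Some of these values depend on how reads of near-identical genes were divided. Amy-p and Amy-d are close copies, and the feature that holds the reads they share (1141 CPM at the mean) was nearly as large as each gene's own. Jon99Cii and Jon99Ciii (147 CPM shared) form another such pair. gammaTry and deltaTry share reads with CG30025 and CG30031, and 11 of the merged features hold reads of those other genes too. Their separate values are uncertain for that reason. LysC, a pseudogene in the annotation used here, overlaps LysD by position, and LysP and LysE lie within the gene mwh.

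Family sums described the samples before any test. The trypsins summed to 3619, 4093 and 3288 CPM in control samples A, B and C of week 2 and to 4317, 2146 and 3738 CPM in CCM samples. At week 3 they summed to 4376, 3943 and 4710 CPM in control and to 3784, 5137 and 5443 CPM in CCM samples. The amylases summed to 2348, 3346 and 2514 CPM in control and 3439, 2057 and 3281 CPM in CCM samples of week 2, and to 3836, 3898 and 4803 CPM in control and 4209, 4475 and 6363 CPM in CCM samples of week 3. The amylase sums of the 2 ages did not overlap under either schedule, whereas the trypsin sums did under both. The maltases behaved like the amylases in control flies, with 1931, 2039 and 1959 CPM at week 2 and 2687, 3032 and 2617 CPM at week 3. In CCM-exposed flies they summed to 2912, 1772 and 2684 CPM at week 2 and to 2877, 3171 and 4027 CPM at week 3, which overlapped. Jonah proteases ranged from 2972 to 3853 CPM in control and 2086 to 4101 CPM in CCM samples of week 2, and from 3407 to 4027 CPM and 3424 to 4651 CPM at week 3. Lysozymes never exceeded 261 CPM.

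**Figure D2:**
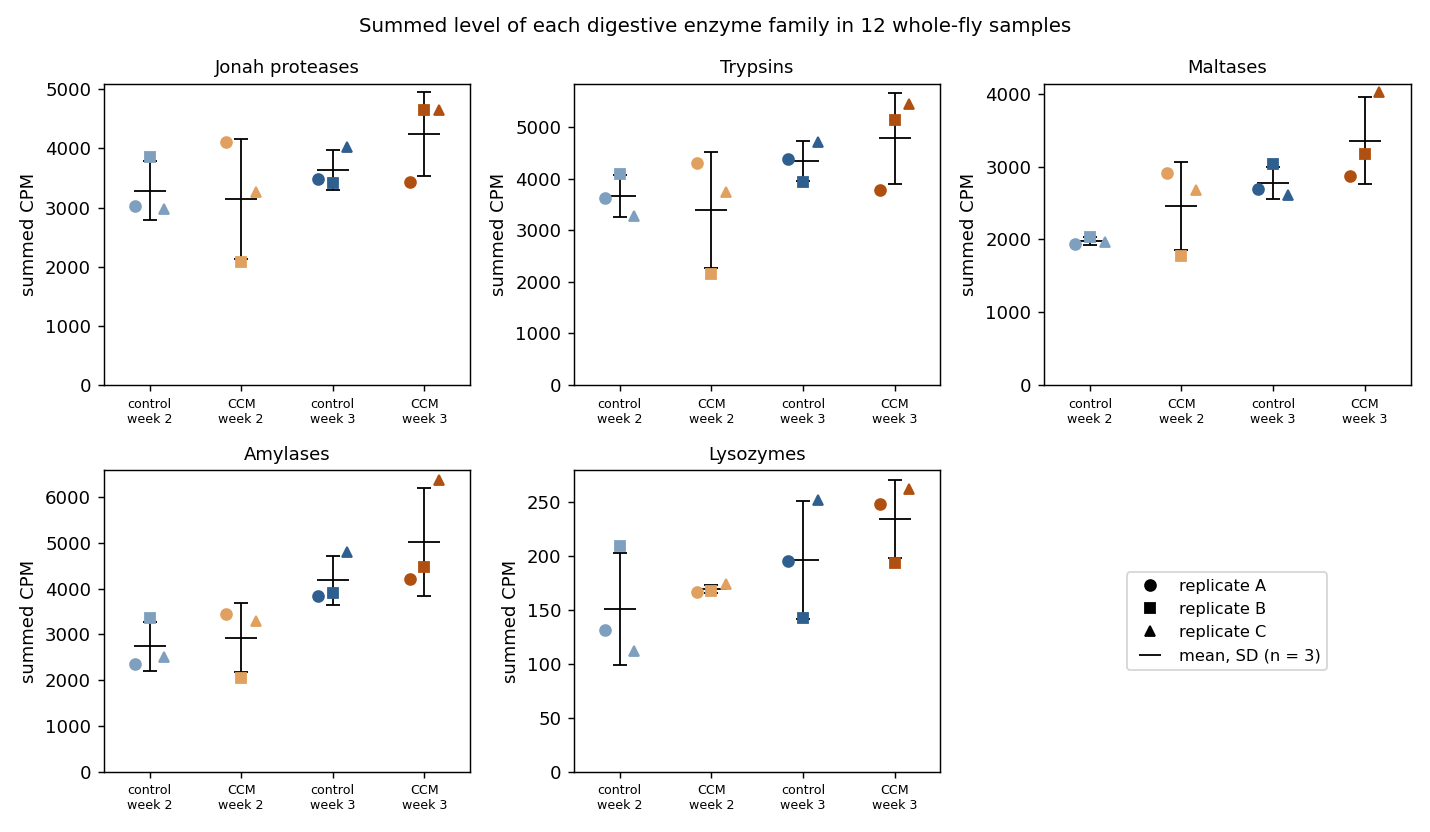
Summed CPM of each enzyme family in every sample, by schedule and week, with replicate letters as symbols and the mean and SD of 3 samples as a dash with whiskers. CCM sample B of week 2 is the lowest of the 12 for 4 of the 5 families (trypsins at 2146 CPM). CCM sample C of week 3 is the highest for all 5, including amylases (6363 CPM) and maltases (4027 CPM). For the Jonah proteases CCM sample B of week 3 is nearly equal to it.

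Among the samples of week 2, 1 library stood apart by its low values. In CCM sample B of week 2, 35 of the 46 features tested at that age lay below both other CCM samples, where 31.8% of all features did. For 24 of the 46 it was the lowest of all 12 samples, a count for which no share over all features is at hand. The median feature differed by -0.61 log2 from the mean of the other 2 samples, against -0.003 over all features tested. Without it the mean of the trypsin sum in CCM flies of week 2 was 4027 CPM in place of 3400 CPM ± 1124 (SD, n = 3), and calls that were lost without it are named below.

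Most calls in the data came between week 3 and week 2, a comparison called age here. Flies of week 3 had also spent longer on the sucrose-agar food and on their schedule. Only flies still alive at each week could be sampled. Age, time on the food, time on the schedule and survival cannot be told apart. In control flies, 15 of the 44 features tested differed between week 3 and week 2 at an adjusted p under 0.1. Unless another tool is named, every adjusted p comes from the quasi-likelihood test of edgeR, adjusted by the Benjamini-Hochberg method over all features tested, and ± gives a standard error over the samples. Of the 15, 9 were upregulated, where 14.0% of all 12200 features were (20.5% of the enzyme features), and 6 were downregulated, where 17.3% of all features were (13.6% of the enzyme features). As a whole the enzyme genes were thus called about as often as other genes. By family, the upregulated features were 3 of 4 amylase features and 5 of 10 maltases, none of which was downregulated. Among 16 Jonah features 1 was upregulated and 6 were downregulated. Those amylase features are Amy-p, its close copy Amy-d and the reads they share, which are not separate results. The downregulated Jonah features include Jon99Fi, Jon99Fii and the reads they share, which are not a result separate from these genes. None of the 11 trypsin features passed in edgeR (1 at an unadjusted p under 0.05, and 0 called by DESeq2), and none of the 3 lysozyme features did (0 at an unadjusted p under 0.05, and 0 called by DESeq2). The median log2FC was 0.22 over the 44 features and -0.03 over all features.

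In CCM-exposed flies, 20 of 47 features passed the same test between week 3 and week 2. Here 16 were upregulated (34.0%, with 26.4% among all 12348 features) and 4 downregulated (8.51%, with 29.6% among all features). The upregulated ones included 3 of 4 amylase features, 3 of 10 maltases, 5 of 12 trypsin features, 2 of 4 lysozyme features and 3 of 17 Jonah features. Downregulated were 3 Jonah genes and 1 maltase. Over the 47 features the median log2FC was 0.40, against -0.03 over all features. Leaving out 1 library changed these counts: 10 features passed without CCM week 2 B, 9 without CCM week 2 C and 10 without CCM week 3 C, and in control flies 6 without control week 2 A, 7 without week 3 A, 9 without week 3 B and 8 without week 3 C. The share of all features that passed fell too, from 56.0% to 46.1%, 43.5% and 48.6% in those CCM fits, and from 31.3% to 10.7%, 10.7%, 19.4% and 12.9% in those control fits.

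Amylase RNA was higher in older flies under both schedules. Amy-p (FBgn0000079), the most abundant feature of its family, measured 827, 1191 and 984 CPM in control flies of week 2 and 1353, 1364 and 1648 CPM at week 3, so that the 2 ages did not overlap (log2FC 0.54 ± 0.18, adjusted p = 0.0610, n = 3 per age). In control flies the call was lost without control week 2 A, control week 2 C, control week 3 A, control week 3 B or control week 3 C (log2FC 0.42 to 0.63 and adjusted p 0.020 to 0.196 over the 6 fits with a library left out). CCM-exposed flies had 1189, 692 and 1134 CPM at week 2 and 1424, 1547 and 2281 CPM at week 3, again without overlap (log2FC 0.75 ± 0.33, adjusted p = 0.0316), and the call was kept in all 6 fits with a library left out (log2FC 0.55 to 0.93). Its copy Amy-d (FBgn0000078) measured 817, 1095 and 819 CPM and then 1346, 1339 and 1675 CPM in control flies (log2FC 0.67 ± 0.18, adjusted p = 0.0369). In CCM-exposed flies Amy-d went from 1169.8, 738 and 1115 CPM to 1469, 1528 and 2113 CPM (log2FC 0.70 ± 0.27, adjusted p = 0.01995). The genes moved together within a sample, since the ratio of Amy-p to Amy-d stayed between 0.937 and 1.20 in all 12. For Amy-d in control flies the call was lost without control week 2 A or control week 3 C (log2FC 0.56 to 0.78 and adjusted p 0.0100 to 0.128 over the 6 fits with a library left out), and in CCM-exposed flies the call was kept in all 6 fits with a library left out (log2FC 0.53 to 0.85).

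The feature with the reads shared by Amy-p and Amy-d followed them. It measured 702, 1059 and 709 CPM in control flies of week 2 and 1136, 1194 and 1479 CPM at week 3 (log2FC 0.62 ± 0.23, adjusted p = 0.0620), and 1074, 626 and 1029 CPM and 1313, 1398 and 1967 CPM in CCM-exposed flies (log2FC 0.72 ± 0.31, adjusted p = 0.0293). The ages did not overlap under either schedule. In control flies the call was lost without control week 2 A, control week 2 C, control week 3 A, control week 3 B or control week 3 C (log2FC 0.50 to 0.79 and adjusted p 0.0102 to 0.194 over the 6 fits with a library left out). Amyrel, a divergent relative of amylase, was far scarcer, at 0.553 to 5.36 CPM, and did not pass in either comparison (log2FC -0.70 in control and -0.37 in CCM-exposed flies).

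Among the maltases, Mal-B2 (FBgn0032382) alone kept its call with age in every fit with a library left out under both schedules. Control flies measured 316, 495 and 334 CPM at week 2 and 741, 708 and 790.4 CPM at week 3, a 1.95-fold difference (log2FC 0.97 ± 0.21, adjusted p = 0.0270, and 0.85 to 1.15 over those fits). CCM-exposed flies measured 575, 559 and 484 CPM and 933, 788 and 1209 CPM (log2FC 0.80 ± 0.20, adjusted p = 0.00496, and 0.67 to 0.99). Under both schedules every older sample was above every younger one. Its neighbour Mal-B1 (FBgn0032381), which lies just before Mal-B2 on the same strand, took no such course. It measured 46.4, 85.9 and 51.2 CPM and then 49.8, 40.3 and 63.4 CPM in control flies (log2FC -0.26 ± 0.33, adjusted p = 0.475), and 53.1, 80.8 and 85.5 CPM and then 61.9, 31.8 and 41.9 CPM in CCM-exposed flies, where it was downregulated although the ages overlapped (log2FC -0.75 ± 0.35, adjusted p = 0.0506). In these flies the call was lost without CCM week 2 B, CCM week 2 C, CCM week 3 B or CCM week 3 C (log2FC -0.99 to -0.50 and adjusted p 0.0175 to 0.148 over the 6 fits with a library left out). The ratio of Mal-B2 to Mal-B1 was 5.67 to 10.8 in the 6 samples of week 2 and 12.5 to 28.9 in those of week 3, without overlap.

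The Mal-A cluster was split. Mal-A6 (FBgn0050360) rose in control flies from 213, 213 and 221 CPM to 353, 412 and 347 CPM (log2FC 0.78 ± 0.08, adjusted p = 0.0270), and the call was kept in all 6 fits with a library left out (log2FC 0.70 to 0.83). Mal-A7 (FBgn0033296) rose from 157, 134 and 189 CPM to 241, 334 and 234 CPM (log2FC 0.75 ± 0.22, adjusted p = 0.0359), and the call was lost without control week 2 A (log2FC 0.57 to 0.87 and adjusted p 0.0329 to 0.111 over the 6 fits with a library left out). Both were already high in CCM samples A and C of week 2, and neither passed in CCM-exposed flies, where the ages overlapped. Mal-A6 measured 472, 221 and 482 CPM and 449.6, 547 and 665 CPM in those flies (log2FC 0.45 ± 0.40, adjusted p = 0.213), and Mal-A7 285, 72.3 and 219.7 CPM and 267, 315 and 502 CPM (log2FC 0.86 ± 0.66, adjusted p = 0.148). Mal-A1 (FBgn0002570), the most abundant maltase, did not pass under either schedule, with 753, 662 and 700.2 CPM and 801, 981 and 675 CPM in control flies (log2FC 0.21 ± 0.17, adjusted p = 0.337). In CCM-exposed flies it measured 986, 470.3 and 911 CPM and 659.5, 936 and 908 CPM (log2FC 0.03 ± 0.37, adjusted p = 0.930). Mal-A5 was the flattest gene of the cluster, at 148 to 176 CPM in all 12 samples.

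Mal-A2 and Mal-A3 changed less but passed under both schedules. In control flies Mal-A2 (FBgn0002569) measured 102, 105 and 99.6 CPM and 122, 143 and 121 CPM (log2FC 0.33 ± 0.08, adjusted p = 0.0806), and Mal-A3 (FBgn0002571) 100.1, 93.3 and 106 CPM and 121, 138 and 125 CPM (log2FC 0.35 ± 0.08, adjusted p = 0.0674), each without overlap. In CCM-exposed flies Mal-A2 measured 107, 65.2 and 89.1 CPM and 106, 122 and 149 CPM (log2FC 0.47 ± 0.25, adjusted p = 0.0687). Mal-A3 measured 114, 56.8 and 88.1 CPM and 110.5, 136 and 182 CPM there (log2FC 0.67 ± 0.36, adjusted p = 0.0629). The ages overlapped for both genes in CCM-exposed flies, in which sample B of week 2 was the lowest. The Mal-A2 call in control flies was lost without any 1 of the 6 libraries (adjusted p 0.120 to 0.212). For Mal-A3 there the call was lost without control week 2 A, control week 2 B, control week 3 A, control week 3 B or control week 3 C (log2FC 0.25 to 0.40 and adjusted p 0.0817 to 0.182 over the 6 fits with a library left out). In CCM-exposed flies, for Mal-A2 the call was lost without CCM week 2 B, CCM week 2 C, CCM week 3 B or CCM week 3 C (log2FC 0.31 to 0.64 and adjusted p 0.0249 to 0.177 over the 6 fits with a library left out), and for Mal-A3 the call was lost without CCM week 2 B, CCM week 2 C or CCM week 3 C (log2FC 0.46 to 0.91 and adjusted p 0.0226 to 0.170 over the 6 fits with a library left out).

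**Figure D3:**
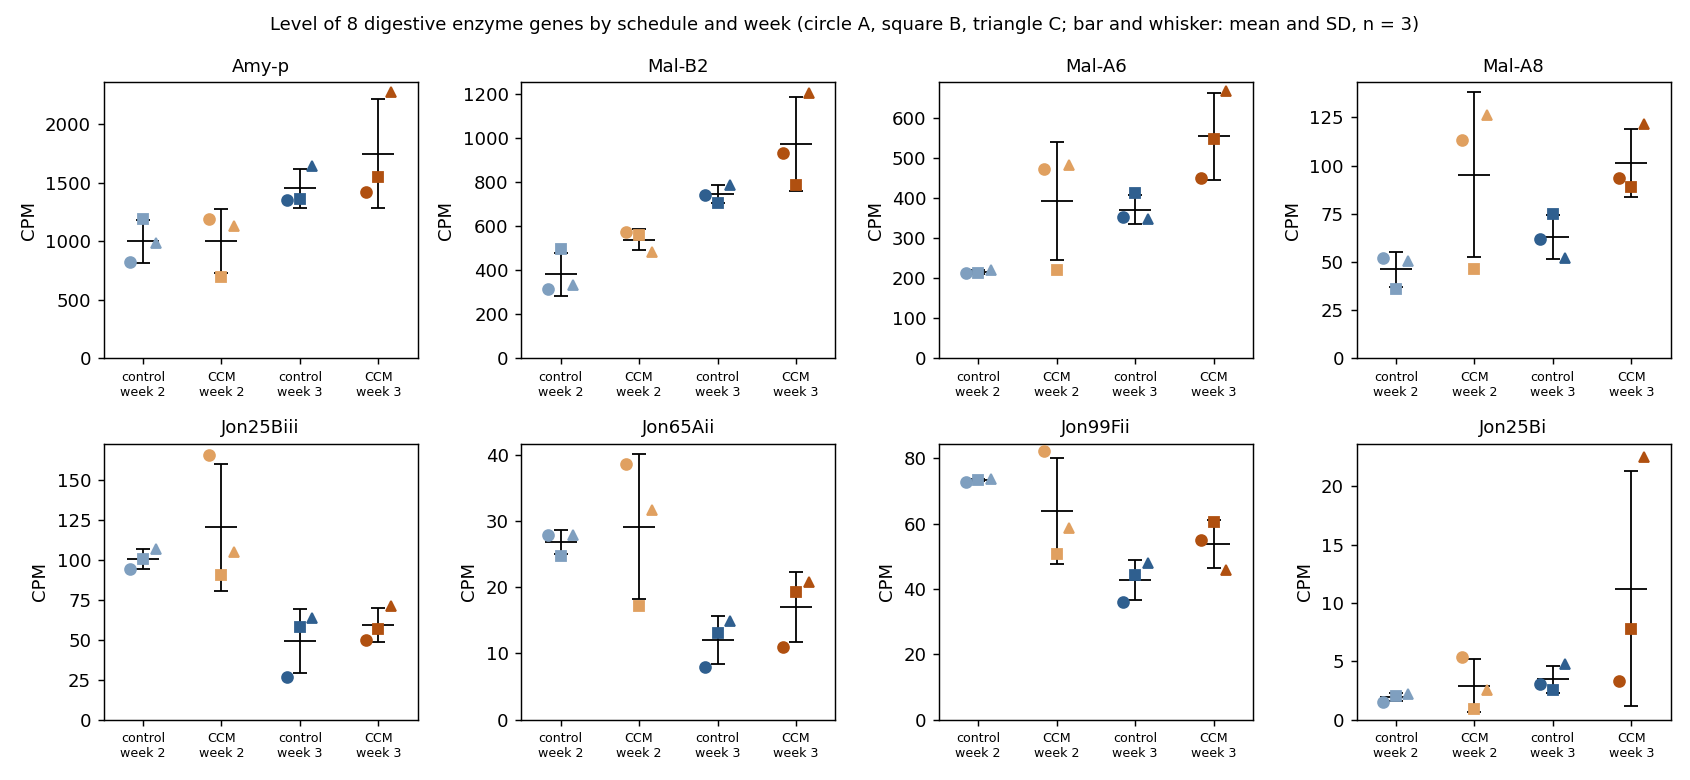
CPM of 8 genes in every sample, by schedule and week, with the mean and SD of 3 samples as a dash with whiskers. Mal-B2 and Amy-p are higher at week 3 in every sample, Jon25Biii is lower in every sample, and Jon99Fii is lower at week 3 in every control sample (36.0 to 48.1 CPM at week 3).

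Several Jonah proteases went the other way with age. Jon25Biii (FBgn0031653) was downregulated in both groups. Control flies measured 94.1, 101 and 107 CPM at week 2 and 26.6, 58.3 and 63.8 CPM at week 3 (log2FC -1.02 ± 0.40, adjusted p = 0.0475), and CCM-exposed flies 166, 90.5 and 105 CPM and 50.0, 56.7 and 71.0 CPM (log2FC -1.08 ± 0.30, adjusted p = 0.00674). The 2 ages did not overlap under either schedule. In CCM-exposed flies the call was kept in all 6 fits with a library left out (log2FC -1.23 to -0.79), and in control flies the call was lost without control week 2 A (log2FC -1.24 to -0.72 and adjusted p 0.0436 to 0.112 over the 6 fits with a library left out). Jon65Aii (FBgn0035666) fell from 27.8, 24.7 and 27.8 CPM to 7.91, 13.1 and 15.0 CPM in control flies (log2FC -1.16 ± 0.27, adjusted p = 0.0270), where the call was kept in all 6 fits with a library left out (log2FC -1.35 to -0.93). In CCM-exposed flies it fell from 38.5, 17.1 and 31.6 CPM to 10.9, 19.3 and 20.8 CPM (log2FC -0.82 ± 0.45, adjusted p = 0.0683), with sample B of week 2 inside the range of week 3, and the call was lost without CCM week 2 A, CCM week 2 C, CCM week 3 A or CCM week 3 B (log2FC -1.09 to -0.54 and adjusted p 0.0235 to 0.199 over the 6 fits with a library left out).

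The neighbours Jon99Fi and Jon99Fii passed with age in control flies, and in CCM-exposed flies only with offsets for gene length (log2FC -0.39, adjusted p = 0.0929 for Jon99Fi, and log2FC -0.49, adjusted p = 0.0551 for Jon99Fii). Jon99Fii (FBgn0039777) measured 72.9, 73.5 and 73.7 CPM and then 36.0, 44.3 and 48.1 CPM in control flies (log2FC -0.78 ± 0.12, adjusted p = 0.0270), and the call was kept in all 6 fits with a library left out (log2FC -0.87 to -0.67). In CCM-exposed flies it measured 82.2, 50.9 and 58.7 CPM and 54.9, 60.5 and 45.98 CPM, which overlapped (log2FC -0.30 ± 0.23, adjusted p = 0.209). Jon99Fi (FBgn0039778) measured 18.9, 14.4 and 19.6 CPM and 10.9, 10.9 and 11.9 CPM in control flies (log2FC -0.65 ± 0.14, adjusted p = 0.0438), and 20.3, 17.4 and 15.7 CPM and 16.2, 18.8 and 13.4 CPM in CCM-exposed flies (log2FC -0.19 ± 0.17, adjusted p = 0.361). For Jon99Fi in control flies the call was lost without control week 2 A, control week 3 A, control week 3 B or control week 3 C (log2FC -0.83 to -0.60 and adjusted p 0.0141 to 0.152 over the 6 fits with a library left out). Their shared reads gave 7.43, 8.36 and 8.21 CPM and 4.04, 3.98 and 5.09 CPM in control flies (log2FC -0.87 ± 0.11, adjusted p = 0.0327), with the call lost without control week 3 A (adjusted p = 0.108). In CCM-exposed flies the shared reads gave 7.10, 5.62 and 6.17 CPM and 6.20, 6.96 and 5.30 CPM (log2FC -0.08 ± 0.14, adjusted p = 0.738). The difference between the schedules in this change did not pass the interaction test for any of the 3 features (log2 differences of 0.53, 0.51 and 0.84, each with an adjusted p of 0.913).

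Jon44E and Jon66Ci, both scarce, were downregulated under 1 schedule each. Jon44E (FBgn0001285) measured 1.25, 1.79 and 1.73 CPM and 0.609, 0.478 and 0.920 CPM in control flies (log2FC -1.25 ± 0.20, adjusted p = 0.0453), and 2.44, 1.06 and 1.09 CPM and 0.886, 0.934 and 1.34 CPM in CCM-exposed flies (log2FC -0.59 ± 0.33, adjusted p = 0.249). In control flies the call was lost without control week 3 A or control week 3 B (log2FC -1.54 to -1.05 and adjusted p 0.0632 to 0.137 over the 6 fits with a library left out). Jon66Ci (FBgn0035886) measured 0.752, 1.89 and 0.831 CPM and 0.246, 0.374 and 0.167 CPM in CCM-exposed flies (log2FC -2.17 ± 0.32, adjusted p = 0.0132), and the call was kept in all 6 fits with a library left out (log2FC -2.46 to -1.59). In control flies, with 1.54, 0.163 and 0.248 CPM and 0.277, 0.372 and 0.0613 CPM, it did not pass the filter on low counts. Neither gene exceeded 2.44 CPM in any sample.

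Within the Jon25B group the 3 neighbours took different directions. Jon25Bi (FBgn0020906) measured 1.54, 2.06 and 2.19 CPM and 3.04, 2.55 and 4.78 CPM in control flies, without overlap (log2FC 0.84 ± 0.27, adjusted p = 0.0935). In CCM-exposed flies it measured 5.36, 0.905 and 2.54 CPM and 3.35, 7.75 and 22.5 CPM, with overlap (log2FC 1.88 ± 0.96, adjusted p = 0.0788). Jon25Bii (FBgn0031654) measured 5.48, 11.4 and 13.2 CPM and 8.25, 9.45 and 11.5 CPM in control flies (log2FC -0.04 ± 0.39, adjusted p = 0.927), and 7.28, 2.44 and 4.37 CPM and 6.06, 14.9 and 40.6 CPM in CCM-exposed flies (log2FC 2.07 ± 0.87, adjusted p = 0.0369). Both genes were far higher in CCM sample C of week 3 than in any other sample. In CCM-exposed flies the calls of both were lost without CCM week 3 C, CCM week 2 B or CCM week 2 C, with log2FC down to 0.93 for Jon25Bi and 1.16 for Jon25Bii (adjusted p up to 0.291 and 0.114). For Jon25Bi in control flies the call was lost without control week 2 A, control week 2 B, control week 2 C, control week 3 A or control week 3 C (log2FC 0.54 to 1.02 and adjusted p 0.0894 to 0.266 over the 6 fits with a library left out).

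**Figure D4:**
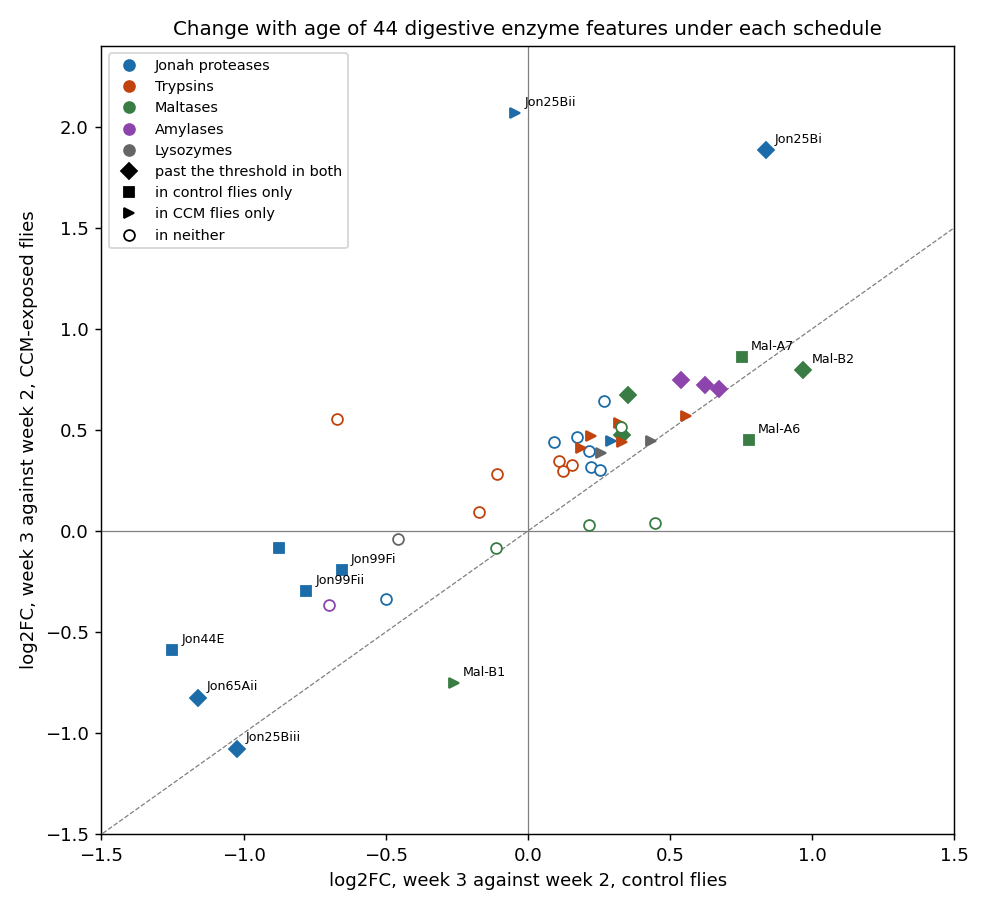
Log2FC of week 3 against week 2 in control flies (horizontal) and in CCM-exposed flies (vertical) for the 44 features tested under both schedules, coloured by family and with symbols for the schedule in which a feature passed the threshold. The dashed line marks equal change. Of the 44, 40 have the same sign under both schedules, and Jon25Bii (-0.04 and 2.07) lies farthest from the line.

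The age comparisons of control and CCM-exposed flies share no sample. They are not fully independent, since week 3 samples of the same letter deviated together, as given with the week 3 results. Of the 44 features tested under both schedules, 40 had the same sign. Pearson's r across them was 0.71, and 0.86 over the 12158 features tested under both, a description of these libraries only, since genes are not independent replicates. In all, 9 features passed under both schedules, each in the same direction, which is 60% of the control calls and 45% of the CCM calls. They were the 3 amylase features, which are not separate results, and Mal-A2, Mal-A3, Mal-B2, Jon25Bi, Jon25Biii and Jon65Aii. None of the 47 features passed the interaction of schedule and week in edgeR (0% of 12530 features did), 4 had an unadjusted p under 0.05, where 4.55% of all features did, and DESeq2 called 0. The change with age is thus not shown to differ between the schedules for any enzyme gene.

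Among the abundant proteases, changes with age were smaller. alphaTry (FBgn0003863), the most abundant of all the transcripts examined, measured 1946, 2175 and 1702 CPM and 2500.2, 2187 and 2590.4 CPM in control flies, without overlap but short of the threshold (log2FC 0.32 ± 0.13, adjusted p = 0.155). In CCM-exposed flies it measured 2218, 1211 and 1907 CPM and 2215, 2864 and 2931 CPM (log2FC 0.54 ± 0.29, adjusted p = 0.0667), where the call was lost without CCM week 2 B, CCM week 2 C, CCM week 3 B or CCM week 3 C (log2FC 0.33 to 0.71 and adjusted p 0.0303 to 0.139 over the 6 fits with a library left out). Jon65Aiii (FBgn0035665), the most abundant Jonah protease, measured 1185, 1546 and 1076 CPM and 1586, 1468 and 1620.0 CPM in control flies (log2FC 0.29 ± 0.16, adjusted p = 0.213). In CCM-exposed flies Jon65Aiii measured 1418, 807 and 1191 CPM and 1403, 1815 and 1596 CPM (log2FC 0.44 ± 0.26, adjusted p = 0.0924), and the call was lost without CCM week 2 B, CCM week 2 C, CCM week 3 B or CCM week 3 C (log2FC 0.26 to 0.62 and adjusted p 0.0336 to 0.207 over the 6 fits with a library left out). For both genes sample B of week 2 was the lowest of the CCM samples.

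The trypsins kappaTry and lambdaTry, which lie side by side at one end of the cluster, rose with age in CCM-exposed flies with no overlap. kappaTry (FBgn0043471) measured 75.3, 55.6 and 62.1 CPM and 80.1, 95.4 and 96.3 CPM (log2FC 0.44 ± 0.15, adjusted p = 0.0227), and lambdaTry (FBgn0043470) 74.6, 53.6 and 57.0 CPM and 78.8, 88.0 and 100.2 CPM (log2FC 0.47 ± 0.18, adjusted p = 0.0251). Both calls were kept in all 6 fits with a library left out. In control flies kappaTry measured 76.4, 81.4 and 60.2 CPM and 92.9, 88.6 and 93.0 CPM (log2FC 0.33 ± 0.13, adjusted p = 0.122), and lambdaTry 78.6, 77.0 and 71.3 CPM and 86.2, 95.3 and 83.3 CPM (log2FC 0.22 ± 0.07, adjusted p = 0.189), again without overlap but short of the threshold. iotaTry (FBgn0015001) measured 29.5, 23.0 and 24.3 CPM and 28.7, 36.0 and 41.6 CPM in CCM-exposed flies (log2FC 0.41 ± 0.19, adjusted p = 0.0542), and the call was lost without CCM week 2 B, CCM week 2 C or CCM week 3 C (log2FC 0.33 to 0.60 and adjusted p 0.0223 to 0.147 over the 6 fits with a library left out). Its control values were 25.5, 31.1 and 25.1 CPM and 30.9, 29.5 and 32.7 CPM (log2FC 0.19 ± 0.11, adjusted p = 0.338). The reads that gammaTry, deltaTry, CG30025 and CG30031 share, the feature gammaTry--CG30031--CG30025--deltaTry, gave 3.85, 3.82 and 2.84 CPM and 4.38, 6.02 and 5.80 CPM in CCM-exposed flies (log2FC 0.57 ± 0.18, adjusted p = 0.0738), and the call was lost without CCM week 2 A, CCM week 2 B, CCM week 2 C, CCM week 3 B or CCM week 3 C (log2FC 0.43 to 0.75 and adjusted p 0.0482 to 0.206 over the 6 fits with a library left out). In control flies they gave 3.57, 3.09 and 1.57 CPM and 4.59, 3.82 and 3.68 CPM (log2FC 0.56 ± 0.31, adjusted p = 0.238).

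LysP and LysE, the most abundant lysozymes, rose in CCM-exposed flies. LysP (FBgn0004429) measured 134, 129 and 146 CPM at week 2 and 205, 157 and 217 CPM at week 3, without overlap (log2FC 0.44 ± 0.15, adjusted p = 0.0254), and the call was kept in all 6 fits with a library left out (log2FC 0.40 to 0.63). LysE (FBgn0004428) measured 22.0, 21.1 and 23.3 CPM and 32.7, 22.7 and 34.8 CPM (log2FC 0.38 ± 0.19, adjusted p = 0.0766), and the call was lost without CCM week 2 A, CCM week 2 B, CCM week 2 C, CCM week 3 A or CCM week 3 C (log2FC 0.32 to 0.61 and adjusted p 0.00929 to 0.178 over the 6 fits with a library left out). In control flies LysP measured 103, 175 and 92.6 CPM and 164, 119 and 218 CPM (log2FC 0.43 ± 0.38, adjusted p = 0.289), and LysE 17.8, 27.2 and 13.5 CPM and 22.6, 18.6 and 28.6 CPM (log2FC 0.26 ± 0.34, adjusted p = 0.502). The control groups overlapped for both genes.

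The enzyme genes are short, and values with age were also computed with offsets that remove any trend of the counts on exonic length. With these offsets, the median log2FC of the enzyme features with age was 0.02 in place of 0.22 in control flies and 0.16 in place of 0.40 in CCM-exposed flies. In control flies 6 single genes of 39 were then upregulated (15.4%, with 13.5% among all features) and 6 downregulated (15.4%, with 13.6% among all). In CCM-exposed flies 7 of 41 were upregulated (17.1%, with 26.8% among all features) and 6 downregulated (14.6%, with 23.5% among all). Without the offsets, 13 of those 39 genes and 18 of those 41 had passed. The calls of Amy-p, Amy-d, Mal-A2, Mal-B2, Jon25Biii and Jon65Aii held under both schedules, and those of Mal-A6, Mal-A7, Jon44E, Jon99Fi and Jon99Fii held in control flies. zetaTry, a trypsin that had not passed, was then downregulated in control flies (log2FC -0.36, adjusted p = 0.0871). Calls in CCM-exposed flies held for Mal-A3, Mal-B1, Jon25Bii, Jon66Ci and lambdaTry (adjusted p = 0.0999). In CCM-exposed flies the offsets ended the calls of alphaTry (adjusted p = 0.193), iotaTry (0.246), kappaTry (0.111), LysE (0.393), LysP (0.167), Jon65Aiii (0.289) and Jon25Bi (0.108). In control flies they ended those of Mal-A3 (0.112) and Jon25Bi (0.193).

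Whether CCM changed the digestive enzymes was asked at each week. After 2 weeks, none of the 46 enzyme features passed in edgeR's test, as none of all 12356 features did (0%). At an unadjusted p under 0.05 there were 4 enzyme features, where 5.67% of all features lay, and DESeq2 called 0 enzyme features. Of the 4, Mal-A6, Mal-A8 and Mal-B2 had positive values and Jon25Bii a negative one. The median log2FC of CCM against control was 0.15 over the enzyme features and 0.02 over all features. It was 0.20 without CCM sample B and -0.13 without CCM sample A, so its sign depended on which library was left out. Mal-A6 measured 213, 213 and 221 CPM in control and 472, 221 and 482 CPM in CCM samples, so that all CCM values were above all control values though sample B lay at the level of the highest control sample (log2FC 0.87 ± 0.37, adjusted p = 0.712). Mal-A8 (FBgn0033297), which lies near it in the cluster, measured 52.3, 35.7 and 50.3 CPM in control and 113, 46.5 and 126 CPM in CCM samples (log2FC 1.05 ± 0.49, adjusted p = 0.712). In both genes CCM samples A and C were at about the same high level, and sample B at that of the controls. Jon25Bii measured 5.48, 11.4 and 13.2 CPM in control and 7.28, 2.44 and 4.37 CPM in CCM samples, which overlapped (log2FC -1.08 ± 0.55, adjusted p = 0.712). In the reads shared by Jon99Fi and Jon99Fii all CCM values (7.10, 5.62 and 6.17 CPM) lay below all control values (7.43, 8.36 and 8.21 CPM), with log2FC -0.34 ± 0.10, adjusted p = 0.712 for Jon99Fii--Jon99Fi. The genes' own, more abundant features overlapped between the schedules (log2FC 0.02 ± 0.17, adjusted p = 0.981 for Jon99Fi, and -0.19 ± 0.20, adjusted p = 0.760 for Jon99Fii).

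After 3 weeks, none of the 46 enzyme features passed without a replicate block either. In all, 0.0164% of 12208 features did. At an unadjusted p under 0.05 there were 12 enzyme features, all higher in CCM-exposed flies, where 12.0% of all features had such a p and 3.44% were also higher. DESeq2 called Mal-A8, Mal-A6 and LysX, all higher, which were 3 of the 64 enzyme features with any reads at week 3. That is 4.69%, with 0.747% among all features with any reads. Both shares include features to which DESeq2 gave no adjusted p. The median log2FC was 0.35 over the enzyme features and -0.001 over all features, and 43 of 46 values were positive. Without CCM sample C, which had the highest sum of every family, the median was 0.10. In 7 features all CCM values lay above all control values (15.2%, where 6.59% of all features did), and in 0 all lay below (10.9% of all features did).

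The replicate letters were taken to pair the samples at week 3. CCM and control samples of the same letter deviated from their group means together there (r = 0.29, 0.60 and 0.56 across genes). At week 2 the same r was 0.12, -0.43 and 0.08. The pairing was read from the same counts to which the block was then fitted. With the letter as a block, 16 of the 46 enzyme features were upregulated in CCM-exposed flies (34.8%, where 3.08% of all features were) and none was downregulated (6.26% of all features were). All 3 letter pairs had more RNA in the CCM sample for 24 of the 46 features (52.2%, where 21.9% of all features did). The 16 were 8 Jonah features, 2 trypsin features, 3 maltases, 1 amylase feature and 2 lysozymes. Among the Jonah features, Jon99Cii, Jon99Ciii and their shared reads are not separate results. The ratio of Jon99Ciii to Jon99Cii stayed between 0.985 and 1.14 in all 12 samples. The count rested on which pairs entered: 23 features were higher and 1 lower without pair C, where 5.31% of all features were higher and 10.5% lower. In edgeR 0 passed without pair A (0.0% of all features did), and 28 had an unadjusted p under 0.05 (17.0% of all). Without pair B 0 passed (0.165% of all features did), and 21 had such a p (15.0% of all). Those fits hold 4 samples each, and DESeq2 was not run on them.

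**Figure D5:**
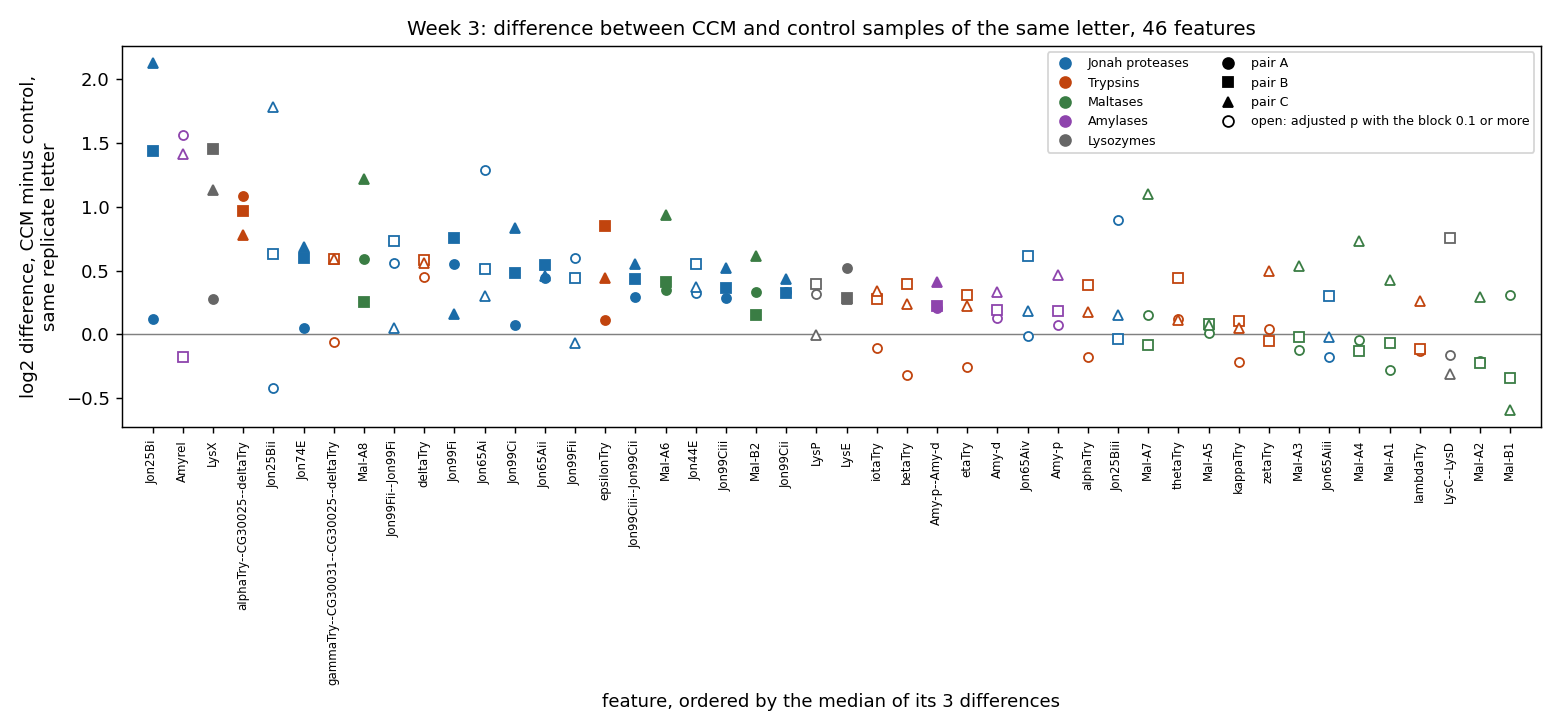
Difference in log2 CPM between the CCM and the control sample of the same letter at week 3, for the 46 features tested, ordered by the median of the 3 pairs. Filled symbols mark the 16 features with an adjusted p under 0.1 in the fit with the block, all of them higher in CCM-exposed flies, and 24 features are above 0 in all 3 pairs.

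Of the maltases, Mal-A6, Mal-A8 and Mal-B2 were upregulated at week 3 with the block. Mal-A6 measured 353, 412 and 347 CPM in control and 449.6, 547 and 665 CPM in CCM samples, without overlap, and was higher by 0.35, 0.41 and 0.94 log2 in pairs A, B and C (log2FC 0.57 ± 0.18, adjusted p = 0.225, and log2FC 0.56, adjusted p = 0.0418 with the block). Mal-A8 measured 62.1, 74.7 and 51.9 CPM in control and 93.7, 89.0 and 121 CPM in CCM samples, again without overlap, with pair differences of 0.59, 0.25 and 1.22 (log2FC 0.68 ± 0.20, adjusted p = 0.191, and log2FC 0.68, adjusted p = 0.0541 with the block). Both genes lie in the Mal-A cluster with Mal-A7 between them, and both were also the maltases with the largest log2FC between the schedules at week 2 (0.87 for Mal-A6 and 1.05 for Mal-A8), where they did not pass. Mal-B2 measured 741, 708 and 790.4 CPM in control and 933, 788 and 1209 CPM in CCM samples, which overlapped by sample B alone, with pair differences of 0.33, 0.15 and 0.61 (log2FC 0.38 ± 0.19, adjusted p = 0.372, and log2FC 0.36, adjusted p = 0.0617 with the block). By contrast, Mal-A1, Mal-A2 and Mal-A5 had log2FC of 0.02, -0.04 and 0.05.

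Jonah proteases, the family with the most features tested, also had the most past the threshold. The 3 Jon99C genes and the shared feature of 2 of them were all among them. Jon99Ciii (FBgn0003357) measured 114.8, 137 and 202 CPM in control and 140.1, 177 and 290.1 CPM in CCM samples. The groups overlapped, but the pairs differed by 0.29, 0.36 and 0.52 (log2FC 0.41 ± 0.39, adjusted p = 0.643, and log2FC 0.39, adjusted p = 0.0408 with the block). Jon99Cii (FBgn0003356) measured 107, 133 and 190.2 CPM and 134, 167 and 257 CPM, with pair differences of 0.33, 0.32 and 0.43 (log2FC 0.37 ± 0.37, adjusted p = 0.660, and log2FC 0.36, adjusted p = 0.0408 with the block). Jon99Ci (FBgn0003358) measured 61.3, 74.1 and 103 CPM and 64.5, 104 and 185 CPM, with pair differences of 0.07, 0.48 and 0.84 (log2FC 0.55 ± 0.49, adjusted p = 0.600, and log2FC 0.46, adjusted p = 0.0871 with the block). In all 3 genes sample A was the lowest and sample C the highest of each week 3 group. Their shared reads, the feature Jon99Ciii--Jon99Cii, gave 106, 128 and 184 CPM in control and 131, 173 and 270.5 CPM in CCM samples (log2FC 0.45 ± 0.38, adjusted p = 0.595, and log2FC 0.42, adjusted p = 0.0385 with the block).

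The other Jonah genes past the threshold with the block were Jon74E, Jon65Aii, Jon99Fi and Jon25Bi. Jon74E (FBgn0023197), at 3L 17548077 to 17549127 and in no cluster, measured 106, 107 and 110.3 CPM in control and 109.9, 163 and 178 CPM in CCM samples. Pair A differed by little and pairs B and C by more, with differences of 0.05, 0.60 and 0.69 (log2FC 0.47 ± 0.21, adjusted p = 0.314, and log2FC 0.44, adjusted p = 0.0864 with the block). Jon65Aii measured 7.91, 13.1 and 15.0 CPM and 10.9, 19.3 and 20.8 CPM, with pair differences of 0.44, 0.54 and 0.46 (log2FC 0.50 ± 0.39, adjusted p = 0.570, and log2FC 0.49, adjusted p = 0.0534 with the block). Jon99Fi measured 10.9, 10.9 and 11.9 CPM and 16.2, 18.8 and 13.4 CPM without overlap, with pair differences of 0.55, 0.75 and 0.16 (log2FC 0.52 ± 0.14, adjusted p = 0.272, and log2FC 0.51, adjusted p = 0.0970 with the block). Jon65Aii and Jon99Fi are genes that had fallen with age in control flies. The week 3 control samples enter both that comparison and this one, so the opposite signs are not independent of each other. Jon25Bi measured 3.04, 2.55 and 4.78 CPM and 3.35, 7.75 and 22.5 CPM, with pair differences of 0.12, 1.44 and 2.12 (log2FC 1.68 ± 0.78, adjusted p = 0.341, and log2FC 1.42, adjusted p = 0.0647 with the block). Pair C differed most, and without CCM week 3 C the unblocked log2FC of Jon25Bi was 0.67.

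The trypsin epsilonTry (FBgn0010425) measured 71.1, 67.6 and 80.3 CPM in control and 76.9, 122 and 109 CPM in CCM samples, with pair differences of 0.11, 0.85 and 0.44 (log2FC 0.49 ± 0.21, adjusted p = 0.303, and log2FC 0.47, adjusted p = 0.0893 with the block). The other trypsin feature, the reads shared by alphaTry, deltaTry and CG30025, was scarce at 0.221, 0.637 and 0.736 CPM in control and 1.03, 1.73 and 1.62 CPM in CCM samples (alphaTry--CG30025--deltaTry, log2FC 1.45 ± 0.29, adjusted p = 0.283, and log2FC 1.48, adjusted p = 0.0614 with the block). Pair differences of this merged feature were 1.09, 0.97 and 0.78. All pair differences given here were taken after 0.5 CPM was added, which makes those of scarce features smaller. The abundant trypsins did not pass. alphaTry itself measured 2500.2, 2187 and 2590.4 CPM and 2215, 2864 and 2931 CPM (log2FC 0.13 ± 0.15, adjusted p = 0.781, and log2FC 0.12, adjusted p = 0.535 with the block), with CCM sample A below its control partner, and Jon65Aiii had a log2FC of 0.04 (adjusted p = 0.897 with the block). kappaTry and lambdaTry differed by -0.02 and 0.0040 log2.

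Among amylases the shared feature of Amy-p and Amy-d passed with the block. It measured 1136, 1194 and 1479 CPM in control and 1313, 1398 and 1967 CPM in CCM samples, with pair differences of 0.21, 0.23 and 0.41 (log2FC 0.29 ± 0.22, adjusted p = 0.571, and log2FC 0.28, adjusted p = 0.0609 with the block). The genes' own features had the same sign in all 3 pairs but did not pass, at log2FC 0.24, adjusted p = 0.141 with the block for Amy-p and log2FC 0.21, adjusted p = 0.111 with the block for Amy-d. LysX (FBgn0004431), a scarce lysozyme, measured 7.25, 4.04 and 3.68 CPM in control and 8.91, 12.0 and 8.65 CPM in CCM samples without overlap, with pair differences of 0.28, 1.46 and 1.13 (log2FC 0.97 ± 0.31, adjusted p = 0.270, and log2FC 1.005, adjusted p = 0.0658 with the block). LysE measured 22.6, 18.6 and 28.6 CPM and 32.7, 22.7 and 34.8 CPM, with pair differences of 0.52, 0.28 and 0.28 (log2FC 0.36 ± 0.26, adjusted p = 0.535, and log2FC 0.36, adjusted p = 0.0655 with the block). LysP did not pass (log2FC 0.23, adjusted p = 0.206 with the block).

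With offsets for exonic length besides the block, 5 of the 40 single genes tested at week 3 passed, all upregulated (12.5%, with 2.05% among all features), in place of 13 with the block alone. They were Mal-A6 (adjusted p = 0.0508), Mal-A8 (0.0741), Mal-B2 (0.0749), Jon99Ciii (0.0761) and Jon25Bi (0.0993). The median log2FC of the enzyme genes was then 0.21. The part of gene length and of library depth, which was higher in all CCM samples of week 3, in the other calls was not tested further.

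Other digestive enzymes were read from a list of 10 genes outside the 5 families. In control flies 2 rose and 1 fell with age, where 14.0% of all features rose and 17.3% fell. In CCM-exposed flies 4 rose and 1 fell, where 26.4% of all features rose and 29.6% fell. tobi, an α-glucosidase like the maltases, rose in control flies from 228, 232 and 242 CPM to 411, 401 and 417 CPM (log2FC 0.81, adjusted p = 0.0270), without overlap. The lipase gene mag (magro) fell in control flies from 20.9, 23.4 and 25.6 CPM to 8.58, 9.98 and 12.4 CPM (log2FC -1.18, adjusted p = 0.0270). Lip3, another lipase gene, went the other way there, from 0.498, 1.09 and 1.03 CPM to 4.48, 4.25 and 4.97 CPM (log2FC 2.39, adjusted p = 0.0270). In CCM-exposed flies Lip3 also rose (log2FC 1.69, adjusted p = 0.0660), while tobi (0.124) and mag (0.113) did not pass. The others that rose there were Ser12 (log2FC 1.69, adjusted p = 0.00242), Ser8 (0.87, 0.0302) and Ser6 (0.85, 0.0403). Treh fell (log2FC -0.30, adjusted p = 0.0317). At week 3 none of the 10 passed between the schedules without the block. With it, 2 were upregulated in CCM-exposed flies, where 3.08% of all features were. They were the serine protease genes yip7 (adjusted p = 0.0598, and 0.270 without the block) and Ser8 (0.0417, and 0.206 without the block).

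Of 11 regulators listed, 9 were found in the counts. With age, 4 of the 9 were downregulated in control flies (17.3% of all features were) and 7 in CCM-exposed flies (29.6% of all were). None was upregulated (14.0% and 26.4% of all features were). Values with offsets for gene length were not read for this list. Mondo, the sugar-sensing transcription factor, measured 72.2, 77.7 and 95.3 CPM and 63.3, 46.6 and 55.2 CPM in control flies (log2FC -0.57, adjusted p = 0.0477). daw, the Activin ligand, measured 66.4, 87.6 and 106 CPM and 53.2, 39.8 and 46.9 CPM in CCM-exposed flies (log2FC -0.95, adjusted p = 0.00498), and 45.3, 72.0 and 68.2 CPM and 50.3, 31.3 and 51.0 CPM in control flies, where it did not pass (0.172). GATAe, a transcription factor of midgut cells that is also among the enterocyte markers, was lower with age in both (log2FC -0.56 in control and -0.66 in CCM-exposed flies). At week 3, 2 of the 9, Mondo and Smox, were downregulated in CCM-exposed flies with the block, where 6.26% of all features were. Without the block neither passed (adjusted p = 0.283 and 0.326).

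Markers of the tissues in a whole fly were read beside these results. The 6 markers of midgut enterocytes summed to 494 to 591 CPM in control and 439 to 605 CPM in CCM samples of week 2, and to 505 to 622 CPM and 538 to 617 CPM at week 3, so that all 4 groups overlapped. With age 1 of the 6 rose (Ssk) and 1 fell (GATAe) in control flies, while 2 rose and GATAe fell in CCM-exposed flies. The 5 enteroendocrine markers summed to 78.8 to 84.2 CPM and 76.5 to 91.2 CPM at week 2, and to 110.5 to 123 CPM and 101 to 111 CPM at week 3, higher in every older sample. Of the 5, Tk, AstC and Dh31 rose under both schedules, while pros fell in CCM-exposed flies (log2FC -1.37, adjusted p = 0.00159) and did not pass in control flies (log2FC -0.61, adjusted p = 0.165). The 2 markers of copper cells summed to 20.7 to 27.5 CPM in control and 16.9 to 17.2 CPM in CCM samples of week 2, without overlap, and to 22.8 to 25.0 CPM and 20.8 to 30.5 CPM at week 3. Neither lab nor Vha100-4 passed between the schedules at week 2 (adjusted p = 0.712 each). With age Vha100-4 rose in CCM-exposed flies (log2FC 0.50, adjusted p = 0.0376). Of the salivary gland markers, the larval glue gene Sgs4 was at or near 0, and its sum with fkh was 28.8 to 60.2 CPM. fkh fell with age in CCM-exposed flies. The 4 fat body markers, mainly the yolk protein genes Yp1, Yp2 and Yp3 of females, summed to 5220 to 9158 CPM at week 2 and 1592 to 4098 CPM at week 3, and all 4 fell under both schedules. The 3 markers of the male accessory gland summed to 54.2 to 77.9 CPM in control and 93.6 to 146 CPM in CCM samples of week 2, without overlap, and to 42.3 to 87.4 CPM and 60.5 to 94.5 CPM at week 3. None of the 3 passed between the schedules at week 2 (adjusted p = 0.712 each). With age Acp26Aa rose in control flies (log2FC 1.03, adjusted p = 0.0405). In CCM-exposed flies SP rose (log2FC 0.37, adjusted p = 0.0557) and Acp36DE fell (log2FC -2.39, adjusted p = 0.00191). The part of these differences in the enzyme results was not tested.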

How the data were processed

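Whole-fly RNA of 12 samples, 3 for each of 4 conditions, was sequenced as paired-end reads. The authors aligned filtered reads to dm6 with STAR and counted them with MMquant against an annotation without non-coding genes, which gives reads that fit several genes equally well to a merged feature. The deposited values are raw counts, without normalization, for 14413 features in each sample, of which 1173 are merged.

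The tests were run with edgeR 4.0.16 (R 4.3.3). Each comparison used its 6 samples and the interaction all 12, after filterByExpr and TMM scaling, and p-values of the quasi-likelihood test were adjusted over all features by the Benjamini-Hochberg method, with calls at an adjusted p under 0.1. Library sizes scaled by TMM underlie all CPM, and each SE (standard error) was computed from log2(CPM + 0.5) of 3 samples per group. Differences between samples of the same letter were also taken on log2(CPM + 0.5). Each log2FC came from the edgeR fit, without that addition. For scarce features the SE is therefore too small for the log2FC beside it. Simulated data with known changes served as a test of the code. Tables were made with Python 3.11.15, numpy 2.4.6 and pandas 2.3.3, and figures with matplotlib 3.10.9.

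The members and gene lists were chosen with earlier results of these data known. Genes given in full were those past the threshold in any of the 5 tests or, at week 3, with the replicate block, and the feature with the highest mean CPM of each family. Genes named besides these were chosen after their values were seen.

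Letters A, B and C come from the sample titles. Correlations of same-letter deviations from the group means, over 11882 features, were 0.29, 0.60 and 0.56 at week 3, all above 0.1, so the letters were taken to pair those samples. They were 0.12, -0.43 and 0.08 at week 2, 0.02, -0.12 and 0.12 between the ages of control flies, and -0.32, -0.09 and -0.37 between those of CCM-exposed flies, which were taken as unpaired.

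Alternatives were DESeq2 1.42.0, RLE normalization, no filter, the block, offsets for exonic length (lowess, span 0.3, single-gene features only), all 12 samples in 1 fit, an adjusted p under 0.05 and each library left out. The fits with the block and a letter left out were added after seeing the data. With totals of 17842804 to 23687266 counts, 3 counts equal 0.118 to 0.184 CPM on the TMM scale. Positions and lengths were taken from an Ensembl annotation of the same assembly. The count of members whose groups do not overlap, and values without CCM week 2 B, were also chosen then.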

Additional observations from a re-analysis of the deposited data

How the results depend on the processing

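With the replicate block at week 3, 16 enzyme features passed in place of 0, with the block and length offsets 5 (single genes only, of which 13 passed with the block alone), and with DESeq2 3. The block count was 0 to 24 with each letter left out. Between the ages of CCM-exposed flies, length offsets, which cover single genes only, gave 13 where 18 single genes, and 20 features in all, had passed, length offsets with the block 10, and an adjusted p under 0.05 also 10. Leaving out each library gave 9 to 22 features there and 6 to 17 in place of 15 in control flies. The block, where the letters were not taken to pair the samples, gave 10 in control flies and 16 in CCM-exposed flies. The week 2 and interaction counts stayed at 0 under every alternative run, which for these counts says only that no feature passed. Over the 35 calls with age, no alternative turned a direction. DESeq2 and RLE normalization each kept all 35, no filter 34, all 12 samples in 1 fit 29 and the block 25. Of the 31 single-gene calls, length offsets kept 22, and length offsets with the block 16. Of 210 refits with a library left out, 131 kept their call. The cause of these differences was not tested. Scarce features, such as Jon44E and Jon66Ci, are limited by depth, and groups of 3 limit all calls.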
